A study of Mus musculus with 2 samples.

Results

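The genes described here are 10 genes of blood vessel growth and the endothelium, Vegfa, Vegfb, Kdr, Flt1, Angpt1, Angpt2, Tek, Tie1, Pecam1 and Cdh5. They were chosen by name, with earlier results of these data known, as VEGF and angiopoietin ligands, their receptors and endothelial junction genes. Each was found on the array by its symbol in the platform's annotation. All 10 had exactly 1 probe set, out of 35556 on the array, and they are 10 of 19936 named nuclear genes. Gastrocnemius RNA was hybridized to 1 Affymetrix Mouse Gene 1.0 ST array for control mice and 1 for PGC-1β(i)skm-/- mice, and each array holds a pool of 3 mice. Both groups, HSA-Cre-ERT2(0/0)/PGC-1β L2/L2 controls and HSA-Cre-ERT2(tg/0)/PGC-1β L2/L2 mutants, were male C57BL/6 mice of 8 weeks. They are homozygous for the floxed L2 allele of PGC-1β, in which loxP sites surround exon 5. Both had received 1 mg tamoxifen daily for 5 days, at an age of 7 weeks, and muscle was taken 1 week later. Only the mutants carry the HSA-Cre-ERT2 transgene, whereas the sample label calls the controls wild-type. The human skeletal actin promoter drives Cre-ERT2 in myofibres, so that endothelial cells, pericytes and other cells of the muscle are not targeted, and an effect of the transgene itself cannot be told apart from that of the deletion. Values are log2 signals, a difference is the mutant minus the control value on that scale, and a ratio is mutant over control signal.

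Skeletal muscle is supplied by a dense capillary bed, and myofibres are themselves a source of the growth factors that maintain it. Vegfa, the main driver of vessel growth, binds the endothelial receptors encoded by Kdr and Flt1, whereas of these receptors Vegfb binds only that of Flt1. Angiopoietins bind the receptor encoded by Tek, with Tie1 as its partner without a high-affinity ligand of its own. Forced expression of PGC-1α in muscle is known to raise Vegfa through ERRα and to increase capillary density, and forced expression of PGC-1β is also known to promote vessel growth, so that the arrays address whether genes of this system differ when PGC-1β is absent from adult myofibres.

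None of the 10 genes had a ratio of 0.8 or less, or of 1.2 or more, the thresholds of the study's methods, on these arrays. Over all named nuclear genes, 0.652% reached the lower and 1.64% the upper threshold, so that a set of 10 genes with no such member is near the background. With 1 array per genotype there are no replicates. The spread between mice is unknown, nothing was tested, and these values set no limit on the size of a difference that could have been missed. At the smaller ratios of 1/1.1 and 1.1, 2 members were lower, Vegfb and Angpt1, and 2 were higher, Tek and Cdh5. Of all genes, 10.1% were at or below a ratio of 1/1.1 and 10.5% were at or above 1.1. The median difference of the 10 genes was 0.02, beside −0.00055 for all named nuclear genes, and 6 of the 10 were above 0.

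The muscle identity and the deletion were checked on the same arrays. The 10 myofibre markers had log2 signals of 12.81 to 13.88 in control and 12.71 to 13.91 in mutant muscle. Their differences were lowest for Myh1, a fast myosin heavy chain, at −0.16 and Mb, myoglobin, at −0.06, and highest for Ckm, the muscle creatine kinase, at 0.04 and Mylpf, a fast myosin light chain, at 0.03. Ppargc1b, the targeted gene, had log2 signals of 7.87 in control and 7.06 in mutant muscle (difference −0.81). Probes of this array are spread along the transcript, and how many of them lie in the deleted exon 5 is not stated in the sources, so that the value bears on the whole transcript. Median signals were 6.00 and 6.02 over all probe sets, and the standard deviation of the difference over named genes was 0.12.

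The upstream sequences of the 2 VEGF ligand genes are shown because these genes, both with bright probe sets, differed between the arrays to unlike extents, by −0.02 for Vegfa and −0.23 for Vegfb. They are the 250 bases before the transcription start in RefSeq, build GRCm38.p6, for Vegfa at chr17:46032378-46032627 and for Vegfb at chr19:6987652-6987901, both on the minus strand and read towards the gene. Capitals mark AGGTCA on either strand, the half-site bound by many nuclear receptors, the class of factors that PGC-1 proteins coactivate.
Vegfa: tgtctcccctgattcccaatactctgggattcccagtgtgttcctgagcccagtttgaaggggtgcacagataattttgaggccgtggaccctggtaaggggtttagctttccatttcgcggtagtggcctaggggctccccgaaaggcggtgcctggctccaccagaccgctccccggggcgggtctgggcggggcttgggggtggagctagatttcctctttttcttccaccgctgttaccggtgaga
Vegfb: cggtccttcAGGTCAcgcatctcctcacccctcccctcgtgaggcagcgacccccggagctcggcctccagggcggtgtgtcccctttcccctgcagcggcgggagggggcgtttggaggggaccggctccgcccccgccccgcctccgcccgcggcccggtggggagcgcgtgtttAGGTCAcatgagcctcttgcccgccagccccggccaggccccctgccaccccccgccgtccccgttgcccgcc

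The Vegfb window held AGGTCA at 2 places, beginning 241 and 73 bases before the start, and the Vegfa window held none. Of 32851 windows of the same length before the starts of all genes in the table, 14% held AGGTCA on either strand at least once and 1.36% at least 2 times. The table has 7 windows for 6 of the 10 genes, Tek, Tie1, Kdr, Flt1, Vegfa with 2 starts, and Vegfb, and AGGTCA was in that of Vegfb only. AAGGTCA, the core of the site preferred by estrogen-related receptors, which contains AGGTCA, was in none of the 7, and in 4.08% of all windows. ACGTG is a form of the core of the site of hypoxia-inducible factors. It was in the window of the downstream start of Vegfa only, and in 16.6% of all windows. GCGTG, the other form of this core, was not counted, and it occurs in the Vegfb window shown. The letters to search were chosen after the sequences and the array values were seen, a match is not a site of binding, and 250 bases leave out introns and distant elements.

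Vegfa had log2 signals of 10.28 in control and 10.27 in mutant muscle, a difference of −0.02 and a ratio of 0.989. Its probe set is annotated with 9 RefSeq transcripts, so that the splice forms of this growth factor are measured together. With 43.5% of all named genes at or below its difference, Vegfa lay in the middle of the array.

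Vegfb, a ligand associated with fatty acid uptake by the endothelium rather than with strong vessel growth, had log2 signals of 10.20 in control and 9.97 in mutant muscle. Its difference of −0.23, a ratio of 0.854, was the lowest of the 10 members, and 2.87% of all named genes were at or below it. Among the 1377 genes with a mean log2 signal of 10 or more, whose differences had a standard deviation of 0.10, 3.41% were at or below it. Vegfb was thus 0.21 lower than Vegfa in its difference. Of the adjacent genes on the chromosome, Fkbp2, a prolyl isomerase of the endoplasmic reticulum, had a smaller difference of −0.10 in the same direction. Dnajc4, a member of the DNAJ co-chaperone family, had a difference of 0.0026. Both were chosen for their position after the value of Vegfb was seen.

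**Figure D1:**
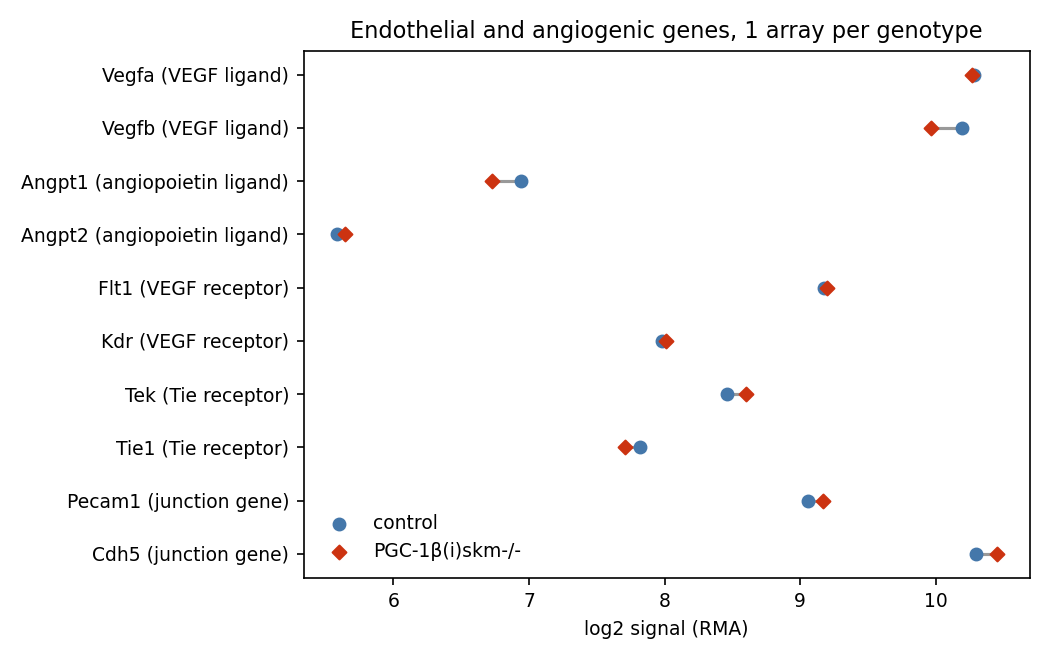
Log2 signal (horizontal axis) of each of the 10 endothelial and angiogenic genes (vertical axis, with its role) on the control array (blue circles) and the mutant array (red diamonds), with a line joining the 2 values of a gene. The red diamond lies to the left of the blue circle for Vegfb, Angpt1, Tie1 and, by 0.02, Vegfa, and to the right for the other 6 genes. Positions along the axis do not compare transcript levels between genes, since probes differ in brightness.

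Vegfb is known to be expressed along with nuclear genes of mitochondrial energy metabolism in muscle, and values are given side by side. Over 81 genes of the respiratory chain and ATP synthase, taken by their symbols after the value of Vegfb was seen, the median difference was −0.20, with quartiles of −0.26 and −0.12, and 76 of the 81 were below 0. Vegfb at −0.23 lay within this range, with 31 of the 81 genes at or below it and 50 above. Whether Vegfb and these genes vary together cannot be measured with 2 arrays.

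For the angiopoietins, Angpt1, the agonist of the receptor encoded by Tek and a stabilizer of vessels, had log2 signals of 6.94 in control and 6.73 in mutant muscle. The difference was −0.22 and the ratio 0.861, with 3.37% of all named genes at or below it. Of the 6307 genes with a mean log2 signal from 6 to under 8, 4.06% were at or below the difference of Angpt1. Angpt2, which opposes Angpt1 in most settings and loosens vessels, had log2 signals of 5.58 and 5.64, a difference of 0.06. The 2 angiopoietins thus differed in opposite directions, with Angpt1 lower by 0.27 relative to Angpt2. The signals of Angpt2 were below the median of both arrays.

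The 2 VEGF receptor genes had nearly the same signals in both genotypes. Kdr, encoding the receptor that carries most of the signal of Vegfa, had log2 signals of 7.98 in control and 8.01 in mutant muscle, a difference of 0.03. Flt1, encoding a receptor for both ligands that also acts as a decoy, had log2 signals of 9.18 and 9.19, a difference of 0.02. Flt1 and Kdr lay at or above 56.6% and 60.7% of all named genes.

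The Tie receptor genes differed in opposite directions. Tek, encoding the angiopoietin receptor, had log2 signals of 8.46 in control and 8.60 in mutant muscle, a difference of 0.14 and a ratio of 1.102, and 10.2% of all named genes were at or above it. Tie1, encoding the partner receptor, had log2 signals of 7.82 and 7.71, a difference of −0.11, and 14.2% of all named genes were at or below it. The difference of Tek was 0.25 above that of Tie1, although both genes are mainly expressed by endothelial cells.

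Both junction genes had a higher signal on the mutant array. Cdh5, encoding VE-cadherin, the adhesion molecule of endothelial adherens junctions, had log2 signals of 10.29 in control and 10.45 in mutant muscle, a difference of 0.16 and a ratio of 1.11. This was the highest of the 10 members. Of all named genes 8.27% were at or above it, and of the 1377 genes with a mean log2 signal of 10 or more, 2.47%. Pecam1, encoding the adhesion molecule CD31, had log2 signals of 9.06 and 9.17, a difference of 0.11. Of the 6 receptor and junction genes, 5 were above 0, with a median difference of 0.07, and Tie1 was the exception. Of the 4 ligand genes, 3 were below 0, with a median of −0.12. In whole muscle on 1 array per genotype, more endothelial cells, more RNA per endothelial cell and variation between pools or arrays cannot be told apart.

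**Figure D2:**
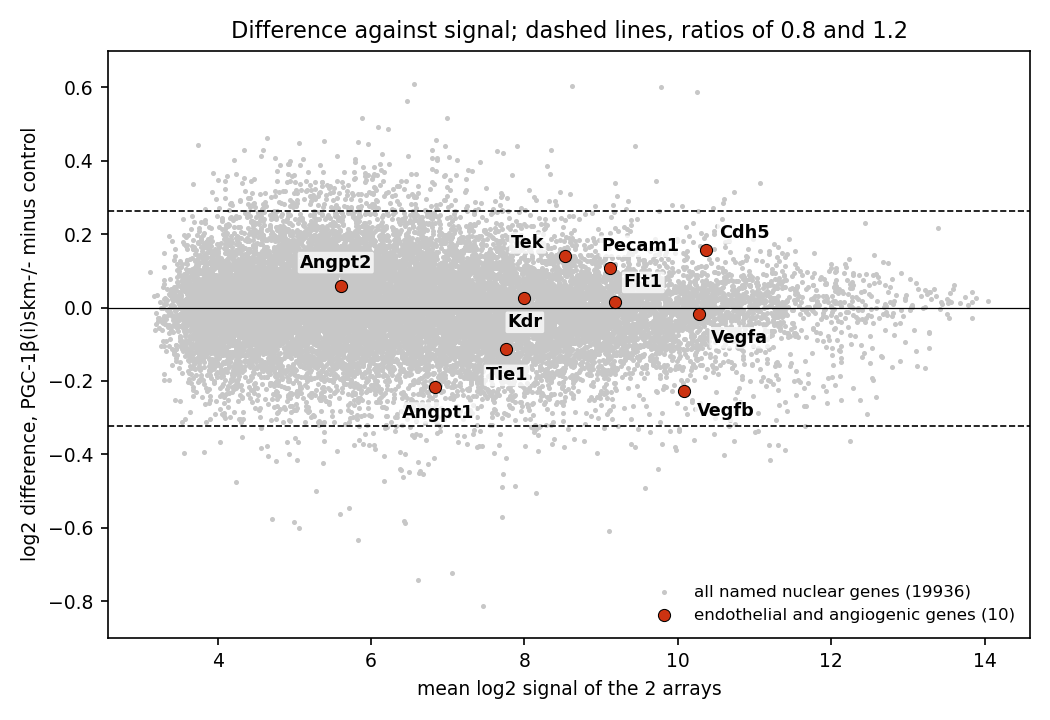
The 19936 named nuclear genes are drawn as grey points. The horizontal axis is the log2 signal averaged over both arrays and the vertical axis the mutant minus the control log2 signal, with red for the 10 endothelial and angiogenic genes. Dashed lines are drawn where the ratio is 0.8 or 1.2. All red points lie between the dashed lines, from Vegfb at −0.23 to Cdh5 at 0.16.

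Further genes of the vessel wall were described with lists of named genes, by counts and medians beside those of all genes, of which 49.6% were above 0. Of 19 pan-endothelial markers measured, 15 were above 0, with a median difference of 0.06. Clec14a, an endothelial lectin, had log2 signals of 5.76 in control and 6.11 in mutant muscle and a ratio of 1.27, the only one of the 19 past either threshold. These signals were near the medians of the arrays. Cd34, a sialomucin of capillary endothelium and also of fibroblast progenitors, had a difference of 0.18. Nos3, the endothelial nitric oxide synthase, had log2 signals of 7.25 and 7.01, a difference of −0.24 and the lowest of the list, followed by Emcn, a sialomucin of capillaries and veins, at −0.13.

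Of 15 transcription factors of the endothelium, 11 were above 0, with a median of 0.08, and 1 had a ratio of 1.2 or more. This was Klf4, which responds to blood flow and is also an early response gene of other cells, with log2 signals of 6.74 and 7.26. The SoxF genes Sox17, Sox7 and Sox18, which act in arterial and endothelial identity, had differences of 0.25, 0.22 and 0.17, and Meox2, a homeobox factor of heart and muscle capillaries, 0.19. The values of Sox7, Sox18 and Meox2 were known when these genes were picked. The lowest were Tal1, a factor of blood and endothelial progenitors, at −0.10 and Gata2, of the same lineages, at −0.07. Of 10 genes of Notch and ephrin signalling, 8 were above 0 with a median of 0.10 and none past either threshold. Dll4, the Notch ligand of tip cells and arteries, had a difference of 0.19 and Jag1, another Notch ligand, 0.18, whereas Nrarp, a feedback inhibitor of Notch, had −0.23 and Efnb2, an arterial ephrin, −0.01.

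For capillary handling of lipid and water, the median difference was −0.02, and 6 of 10 genes lay below 0. Rbp7, a retinol-binding protein of capillary endothelium, had log2 signals of 6.89 in control and 6.53 in mutant muscle and a ratio of 0.779, the only gene of the vessel wall lists at 0.8 or less. Aqp7, a water and glycerol channel, had a difference of −0.09, and Cav1, of caveolae, and Car4, a carbonic anhydrase of the capillary surface, 0.08 and 0.18. The 12 markers of pericytes and vascular smooth muscle had a median of 0.03 and spanned the narrowest range of these lists. Their lowest values were −0.04 for Notch3, a receptor of mural cells, and −0.02 for Cnn1, a smooth muscle calponin, and their highest 0.13 for Kcnj8, a potassium channel subunit of pericytes, and 0.09 for Pdgfb, the endothelial ligand that recruits these cells. Of 5 lymphatic markers, 4 were above 0, with Pdpn at 0.19, Lyve1 at 0.12, Prox1 at −0.07 and Reln at 0.0052.

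Among 8 further genes of the VEGF and angiopoietin systems, the lymphatic ligands had the highest values. Vegfc had log2 signals of 5.84 in control and 6.20 in mutant muscle, a ratio of 1.28, and Vegfd 7.23 and 7.46, a ratio of 1.17. Their receptor gene, Flt4, had log2 signals of 6.32 and 6.13, a difference of −0.19. Pgf, a ligand of Flt1, had a difference of −0.11. Of the 8 genes of this list, 4 were above 0, the median was 0.02, and Vegfc was the only one past either threshold, at a signal near the median of the arrays.

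Secreted factors that promote or restrain vessel growth differed in their medians. Of 13 pro-angiogenic factors, 7 were above 0, with a median of 0.0028 and none past either threshold. Hbegf, an EGF receptor ligand, had a difference of 0.26 and Hgf 0.17, the latter at a log2 signal of 4.38 in control muscle, whereas Adm, encoding adrenomedullin, had −0.15 and Angptl4, a lipoprotein lipase inhibitor, −0.10. Of 11 angiostatic factors, 9 were above 0, with a median of 0.21. Thbs1, the antiangiogenic matrix protein thrombospondin, had log2 signals of 8.10 in control and 8.48 in mutant muscle and a ratio of 1.31. Serpinf1, encoding the secreted inhibitor PEDF, had 9.54 and 9.89 (ratio 1.27), and Adamts1, a protease that sequesters VEGF, 9.01 and 9.35 (ratio 1.27). These 3 were the genes of the list at 1.2 or more, beside 1.64% of all named nuclear genes. The list was chosen with earlier results of these data known. Cxcl9, an interferon-inducible chemokine, was the only one at 0.8 or less, with 7.41 and 6.69 (ratio 0.605), and Col18a1, the source of endostatin, had a difference of −0.01.

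**Figure D3:**
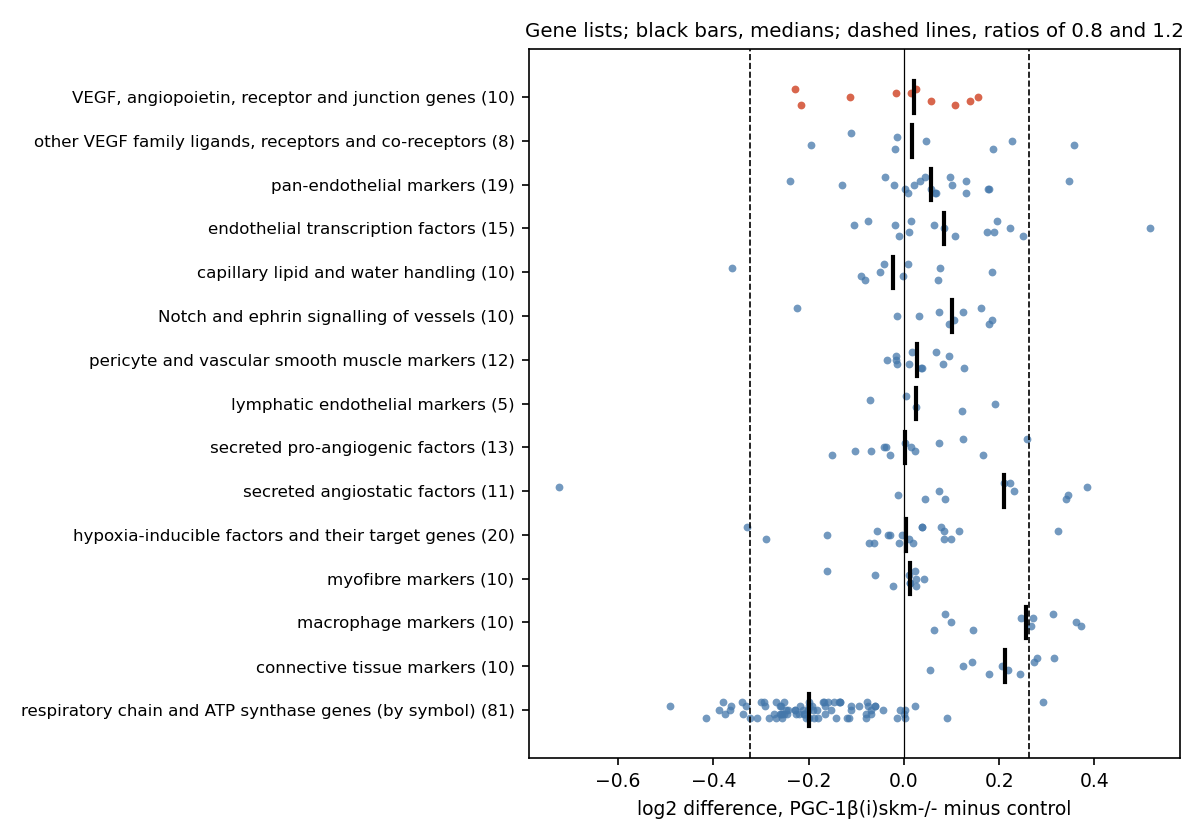
Points are single genes, placed by the mutant minus the control log2 signal (horizontal axis) and by gene list (vertical axis, with the number of genes measured), with a black bar at the median of each list and dashed lines where the ratio is 0.8 or 1.2. The 10 endothelial and angiogenic genes, in red, have a median of 0.02, beside 0.06 for pan-endothelial markers, 0.21 for angiostatic factors, 0.26 for macrophage markers, 0.21 for connective tissue markers and −0.20 for the respiratory chain and ATP synthase.

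Connective tissue and macrophage markers were higher on the mutant array, whereas the endothelial lists were mixed. Of 10 genes of capillary lipid and water handling, 6 were below 0. Of 19 pan-endothelial markers, 15 were above 0, with a median of 0.06. Of the 10 myofibre markers, 7 were also above 0, with a median of 0.014. All 10 connective tissue markers were above 0, with a median of 0.21, and 3 at a ratio of 1.2 or more, Fmod at 0.32, Tnmd at 0.28 and Thbs4 at 0.27, all genes of tendon-like matrix. The lowest were Pdgfra, a receptor of fibroblast progenitors, at 0.05 and Col3a1, a fibrillar collagen, at 0.12, and the summed signal of the list was 13.62 in control and 13.82 in mutant muscle on the log2 scale. All 10 macrophage markers were above 0, with a median of 0.26 and 5 at a ratio of 1.2 or more, the complement genes C1qa (0.37), C1qb (0.36) and C1qc (0.27), the mannose receptor Mrc1 (0.31) and Csf1r (0.27), the receptor for the macrophage growth factor. The lowest were Cd68, a lysosomal protein, at 0.06 and Cd163, a haemoglobin scavenger receptor, at 0.09. The summed signal of the list was 10.65 in control and 10.91 in mutant muscle. Over all named nuclear genes, 1.64% were at a ratio of 1.2 or more. The connective tissue and macrophage lists were chosen with earlier results of these data known. The 19 pan-endothelial markers had summed signals of 12.79 and 12.85, and the 12 pericyte and smooth muscle markers 13.73 and 13.76. Des, encoding desmin, is on the latter list, is also expressed in myofibres, and was picked with its value known. Its log2 signals of 12.82 in control and 12.83 in mutant muscle were the highest of that list, whose sum therefore does not measure mural cells alone. Fibroblasts and macrophages also express Thbs1, Serpinf1 and Sparc, a matrix protein of the angiostatic list with a difference of 0.23, picked with its value known. The part of the other cells in the values of the endothelial and angiostatic genes was not tested. Of the 7 red blood cell markers listed, 2 had a probe set of their own, Slc4a1 at −0.14 and Alas2 at −0.04, so that the blood content of the 2 pools was not compared further.

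Upstream of Vegfa, the coactivators and the factors that carry their effect on it were measured as well. Ppargc1a, on the brighter of its 2 probe sets, had log2 signals of 10.18 in control and 10.29 in mutant muscle, a difference of 0.11. Pprc1 had a difference of 0.03. Esrra, encoding ERRα, had log2 signals of 8.28 and 8.13, a difference of −0.16, Esrrb, at a signal under the array medians, −0.22, and Esrrg, encoding ERRγ, 0.06. Of 20 hypoxia-inducible factors and target genes, 10 were above and 10 below 0, with a median of 0.0039. Ddit4, a stress-induced inhibitor of mTORC1, had a ratio of 0.796 and Vhl, encoding the ubiquitin ligase component that removes hypoxia-inducible factors, of 1.25, with log2 signals of 6.60 and 6.93. Egln3, a prolyl hydroxylase induced by hypoxia, had a difference of −0.29 and Car9, a carbonic anhydrase, at a signal below the array medians, 0.12. Hif1a had a difference of 0.08 and Epas1, encoding HIF-2α, which is abundant in endothelium, −0.16, both chosen after their values were seen.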

How the data were processed

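Gastrocnemius RNA of 3 pooled mice per genotype was hybridized to 1 array each, so that the number of arrays limits the precision. Intensities were read with Command Console 3.2, and the authors ran RMA in Expression Console 1.1 to obtain the deposited log2 signals. RMA forces both arrays to one distribution and therefore hides any shift common to all transcripts. RMA is also named in the submitters' processing notes. The sources used here name no genome build for the annotation of the probes.

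Of 35556 probe sets, 21789 had 1 gene symbol, 21698 of them matched by Entrez ID to RefSeq (GRCm38.p6), used for current names and upstream sequences. For the 997 genes with several, the brightest probe set by mean signal stood for the gene. Members and lists were chosen with earlier results of these data known. Named genes are all members, coactivators and partner receptors, and of other lists those past a ratio of 0.8 or 1.2 and the 2 highest and 2 lowest. The rule does not cover the respiratory chain genes, a list added later and given only as a whole, or genes stated to have been picked with their values known. No test was made. The cause of a difference was not tested either, and the 2 arrays allow no likeness of patterns between genes to be measured. Calculations used Python 3.11.15, pandas 2.3.3 and statsmodels 0.14.6, and were checked on simulated data. Alternatives were other choices of probe set, centring, a loess curve of difference on signal (span 0.3), filters on signal and other ratios.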

Additional observations from a re-analysis of the deposited data

How the results depend on the processing

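The difference of each of the 10 genes kept its sign under every alternative that gave a value, and moved by at most 0.02 on the log2 scale, with the loess curve subtracted. Since each has 1 probe set, the choice of probe set could not change it. With a filter at a mean log2 signal of 6, Angpt2 gave no value, and at 7, Angpt1 and Angpt2 gave none. No member was past a ratio of 0.8 or 1.2 under any of these, nor at 1/1.2 or less, nor at 1.5 in either direction, and 4 were at ratios of 1/1.1 or less or 1.1 or more. That count was 3 with the filter at 7, where Angpt1 gave no value, and 4 under the other alternatives. List medians moved by more than 0.05 in 2 lists. That of the lymphatic markers was 0.12 at both filters, in place of 0.03, and that of the coactivators and partner receptors 0.029 with the filter at 6, in place of −0.06, because dim genes left these lists of 5 and 6 genes. No paired analysis was possible because each genotype has 1 array.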
